A study of Mus musculus with 16 samples.

Results

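RANK ligand, osteoprotegerin, their receptor and the genes that osteoclasts use to resorb mineral were followed in the aortas of mice with chronic kidney disease. The set held 10 genes of the 54532 in the deposited tables, chosen by gene name: Tnfsf11, Tnfrsf11b, Tnfrsf11a, Nfatc1, Acp5, Ctsk, Atp6v0d2, Dcstamp, Ocstamp and Oscar. Each name matched 1 row of the count table and 1 row of the FPKM table. Aortas of 16 male C57BL/6J mice were sequenced as polyadenylated RNA, 1 library per mouse and 4 mice per group, and the mice were 12 weeks old when surgery began. Sham mice kept their kidneys and ate the HPi-Lp diet, with 2.5% protein and 2% phosphorus, for 30 days. The other groups underwent 5/6 nephrectomy (5/6 Nx), the surgical removal or ligation of most of the kidney mass, and ate for 30 days either the HPi-Lp diet (5/6 Nx-HPi-Lp), the HPi-Hp diet with 18% protein and 2% phosphorus (5/6 Nx-HPi-Hp), or the LPi-Lp diet with 2.5% protein and 0.3% phosphorus (5/6 Nx-LPi-Lp). Sham against 5/6 Nx-HPi-Lp thus compared surgery on 1 diet, and the 5/6 Nx groups compared protein or phosphorus after surgery.

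RANK ligand is a TNF-family cytokine that binds the receptor RANK on monocyte-lineage precursors, and NFATc1 then switches on the genes of the bone-resorbing osteoclast. Osteoprotegerin is a secreted decoy receptor that captures the ligand before it reaches RANK, so the balance of ligand and decoy sets how much signal is delivered. In the artery wall osteoprotegerin is made by smooth muscle and endothelial cells, and mice without it are known for arterial calcification together with bone loss.

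Library totals ran from 13659525 to 57276915 counts, and replicates 2 and 3 of 5/6 Nx-HPi-Lp were the deepest of the 16. The aortic label was checked on 6 smooth muscle markers, and their summed FPKM was 7554 to 9615 in Sham mice, 746 to 1742 in 5/6 Nx-HPi-Lp, 1849 to 8310 in 5/6 Nx-HPi-Hp and 2491 to 6112 in 5/6 Nx-LPi-Lp. The sum of 10 macrophage markers was 532 to 1961 in 5/6 Nx-HPi-Lp against 159 to 499 in the other 12 libraries, and the sum of 5 adipocyte markers was 50.8 to 173 in Sham mice against 165 to 1284 in the 5/6 Nx groups. In bulk tissue, more cells of a type and more RNA per cell cannot be told apart.

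A gene was called where its adjusted p was at most 0.05 and its fold change at least 2, in the quasi-likelihood test of edgeR, with p-values adjusted by Benjamini-Hochberg over all genes tested. FPKM is the level per kilobase of transcript and per sequencing depth, and folds below come from the fit on counts unless named otherwise. In 5/6 Nx-HPi-Lp against Sham mice 7 of the 10 genes had enough counts to be tested, 4 were called higher and 1 lower, where 15.0% of all 16513 genes tested were called higher and 7.18% lower. Against 5/6 Nx-HPi-Hp 8 were tested and 3 were called, all higher, with 5.01% of all genes called higher and 3.11% lower. Against 5/6 Nx-LPi-Lp 9 were tested and 4 were called, all higher, with 7.90% of all genes called higher and 3.98% lower. Tnfsf11, Ctsk and Atp6v0d2 were called in all 3 of these comparisons, which share the 4 libraries of 5/6 Nx-HPi-Lp. Tnfsf11 and Atp6v0d2 had enough counts to be tested only in comparisons with that group, where they were high. Their calls thus raise the counts above through the count filter, and these counts are not a test against the shares of all genes.

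**Figure D1:**
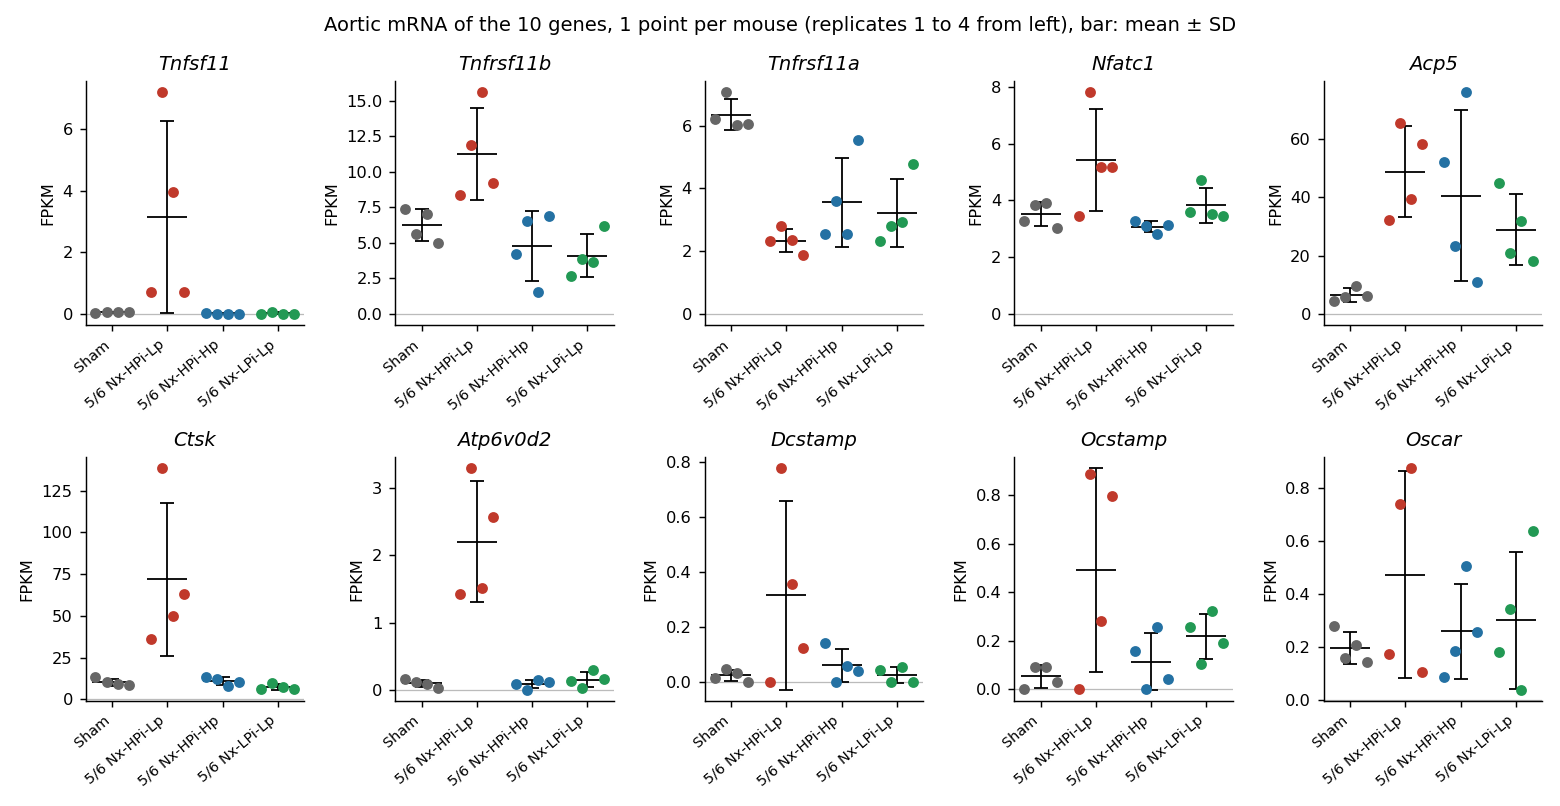
FPKM of the 10 genes in each aorta, 1 panel per gene and 1 point per mouse, with the mean and SD of each group as bars and a linear axis per panel. Tnfsf11, Tnfrsf11b, Ctsk and Atp6v0d2 stood higher in all 4 5/6 Nx-HPi-Lp aortas than in the other 12. Acp5 stood higher in every 5/6 Nx mouse than in Sham mice, and Tnfrsf11a stood lower. The share of all genes that stood apart in these ways was not computed.

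Promoter windows from the RefSeq promoter table were examined for 5 of the 10 genes: Tnfsf11, Tnfrsf11a, Ctsk, Oscar and Acp5, the last with 3 annotated starts. The table held no entry for Tnfrsf11b, Dcstamp, Ocstamp and Atp6v0d2, and the remaining gene was not examined. The promoters of Tnfsf11 and Ctsk are shown because both genes were called higher in 5/6 Nx-HPi-Lp against each other group, and each is the 250 bases before the start in GRCm38.p6, read 5′ to 3′ along the gene. The Tnfsf11 window is chr14:78308044-78308293 on the minus strand and the Ctsk window is chr3:95498960-95499209 on the plus strand. For Ctsk the RefSeq start lies upstream of the deposited gene start at 95499256. Its first transcribed bases were not found in GENCODE transcripts, so the Ctsk distances below are to the RefSeq start.
Tnfsf11: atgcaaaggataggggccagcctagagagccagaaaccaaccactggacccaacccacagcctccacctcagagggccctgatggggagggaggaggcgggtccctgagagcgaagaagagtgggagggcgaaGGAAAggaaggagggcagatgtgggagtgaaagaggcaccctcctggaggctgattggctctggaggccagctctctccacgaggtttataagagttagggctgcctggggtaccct
Ctsk: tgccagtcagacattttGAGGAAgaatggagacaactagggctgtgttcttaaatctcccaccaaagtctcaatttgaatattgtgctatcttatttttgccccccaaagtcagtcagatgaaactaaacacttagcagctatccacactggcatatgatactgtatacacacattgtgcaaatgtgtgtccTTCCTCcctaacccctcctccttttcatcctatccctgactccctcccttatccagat
Capitals mark the letters of the NFAT core GGAAA, the AP-1 motif TGANTCA and the PU.1 motif GAGGAA on either strand, the motifs bound by osteoclast transcription factors. The Tnfsf11 window held 1 NFAT core, 117 bases before the start, and neither of the others. The Ctsk window held 2 PU.1 motifs, the nearer 58 bases before the start, and no NFAT core or AP-1 motif. No AP-1 motif stood in the windows of the 5 genes, while NFAT cores were found before Oscar and before each of the 3 starts of Acp5. Tnfrsf11a held none of the 3 motifs. Over all 32851 promoter windows of this length, 55.6% held GGAAA, 6.75% held TGANTCA and 23.3% held GAGGAA, so these matches are a description of the letters and not of binding.

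Tnfsf11 encodes RANK ligand and lies at chr14:78277445-78308043 of mm10. It was at or below the floor of 3 counts in 12 of the 16 aortas and present in all 4 5/6 Nx-HPi-Lp aortas. In Sham mice Tnfsf11 stood at 0.0164, 0.0374, 0.0385 and 0.0513 FPKM, which are 1 to 3 counts per library. The 5/6 Nx-HPi-Lp aortas held 0.694, 7.21, 3.96 and 0.695 FPKM, from 24, 900, 400 and 24 counts. The group thus spread over a 10.4-fold range, with replicates 2 and 3 high and replicates 1 and 4 low, and even the lowest mouse was above every mouse of the other groups. Tnfsf11 had 1 count in all of 5/6 Nx-HPi-Hp, in replicate 1, and 2 counts in all of 5/6 Nx-LPi-Lp, in replicate 2.

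The pooled counts, scaled to library size, were 121-fold higher in 5/6 Nx-HPi-Lp than in Sham mice (95% interval 61.3 to 281), where the reference was 8 counts. They were 629-fold higher than in 5/6 Nx-HPi-Hp (113 to 24844) and 348-fold higher than in 5/6 Nx-LPi-Lp (96.1 to 2875). These intervals cover counting error alone. Replicate 2 supplied 900 of the 1348 counts, and without it, a choice made after the data were seen, the pooled folds were 70.3 against Sham (35.4 to 164), 365 against 5/6 Nx-HPi-Hp and 202 against 5/6 Nx-LPi-Lp. In the edgeR test across mice the Tnfsf11 folds were 82.5 against Sham, 335 against 5/6 Nx-HPi-Hp and 206 against 5/6 Nx-LPi-Lp. Their adjusted p was 0.000651, 0.00497 and 0.00475 in turn. The mice with the most Tnfsf11, replicates 2 and 3, were also the most deeply sequenced, and without both the gene was still called in the 3 comparisons. With limma on log2(FPKM + 1), the adjusted p was 0.0666 against 5/6 Nx-HPi-Hp and 0.0554 against 5/6 Nx-LPi-Lp. Its level in Sham, 5/6 Nx-LPi-Lp and 5/6 Nx-HPi-Hp aortas could not be ordered at this depth.

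Marker sums of 3 further cell types were also higher in 5/6 Nx-HPi-Lp than in the other mice, for sympathetic neurons only in replicates 1, 3 and 4. The sum of 4 lymphoid stroma markers was 65.2, 48.5, 39.9 and 60.1 FPKM in 5/6 Nx-HPi-Lp against 1.02 to 14.3 in the other 12 mice, with Ccl19 at 0 in that group and 2 of 3 tested called higher than in Sham. Within that group the lymphoid stroma sum was highest in replicates 1 and 4, the mice with the least Tnfsf11. The sum of 6 osteoblast markers was 240, 1428, 497 and 479 FPKM against 47.9 to 233 in the other mice. Most of it was Col1a1, a collagen that fibroblasts also make, at 660 ± 524 FPKM, while the osteoblast factor Sp7 stood at 0.131 ± 0.159 FPKM, Bglap was at 0, and Col1a1 was the only 1 of 3 tested that was called. The sum of 5 sympathetic neuron markers was 351, 12.97, 67.6 and 277 FPKM against 1.94 to 46.6 in the other mice, so that within 5/6 Nx-HPi-Lp it was highest in the mice with the least Tnfsf11. All 3 of the neuron markers tested were called higher than in Sham. Against 5/6 Nx-HPi-Hp 1 of 5 tested was called higher, and against 5/6 Nx-LPi-Lp 3 of 5. The part of these cell types in the Tnfsf11 difference was not tested.

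Tnfrsf11b encodes osteoprotegerin and lies at chr15:54250619-54278484. It was well expressed in every group, and its mean level fell in the order 5/6 Nx-HPi-Lp, Sham, 5/6 Nx-HPi-Hp, then 5/6 Nx-LPi-Lp. In Sham mice it stood at 7.38, 5.59, 7.02 and 5.01 FPKM. Tnfrsf11b reached 8.40, 11.9, 15.6 and 9.19 FPKM in 5/6 Nx-HPi-Lp. The lowest of these exceeded the highest mouse of every other group, since 5/6 Nx-HPi-Hp reached 6.88 FPKM and 5/6 Nx-LPi-Lp 6.19 FPKM. Within 5/6 Nx-HPi-Hp the values were 4.19, 6.57, 1.58 and 6.88 FPKM, with replicate 3 apart at the bottom, and in 5/6 Nx-LPi-Lp they were 2.64, 3.89, 3.66 and 6.19 FPKM.

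The rise of Tnfrsf11b in 5/6 Nx-HPi-Lp was called against 5/6 Nx-LPi-Lp, with a log2 fold change of 1.46 (SE 0.29, adjusted p = 0.0101). Against Sham it was 0.82 (SE 0.21, adjusted p = 0.0107), which passed the p threshold and lay under the fold threshold. Against 5/6 Nx-HPi-Hp Tnfrsf11b had a log2 fold change of 1.22 (SE 0.40) with an adjusted p of 0.0722 in edgeR, and DESeq2 gave 0.0206. Without replicates 2 and 3 of 5/6 Nx-HPi-Lp the log2 fold change against 5/6 Nx-LPi-Lp was 1.07, still over the fold threshold, with an adjusted p of 0.0614 in edgeR. The other 3 groups overlapped in Tnfrsf11b, with an adjusted p against Sham of 0.429 in 5/6 Nx-HPi-Hp, of 0.0960 in 5/6 Nx-LPi-Lp, and of 0.894 between these diets.

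Ligand and decoy were set side by side within each aorta as the ratio of Tnfsf11 to Tnfrsf11b FPKM. In 5/6 Nx-HPi-Lp the ratio was 0.0826, 0.607, 0.254 and 0.0756 in replicates 1 to 4, with a mean of 0.255 (SD 0.249, n = 4). Osteoprotegerin mRNA was thus in excess of RANK ligand mRNA in these 4 aortas, by 1.65-fold in replicate 2 and by 13.2-fold in replicate 4. In the other groups Tnfsf11 was at or under 3 counts, and 3 counts set upper bounds on the ratio of 0.00668 to 0.0102 in Sham, 0.0104 to 0.0663 in 5/6 Nx-HPi-Hp and 0.0102 to 0.0282 in 5/6 Nx-LPi-Lp. The lowest 5/6 Nx-HPi-Lp value lay above the highest of these bounds, which came from the 5/6 Nx-HPi-Hp mouse with the least Tnfrsf11b. The ratio is a description of mRNA and was not tested.

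**Figure D2:**
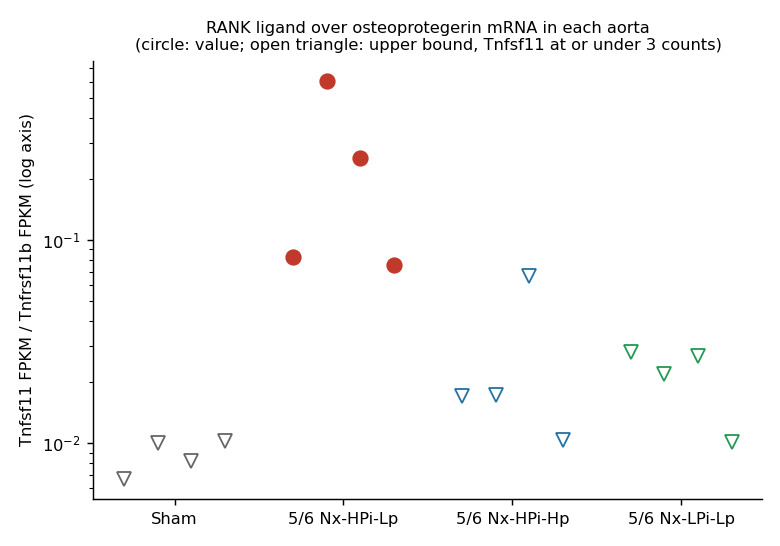
Tnfsf11 FPKM divided by Tnfrsf11b FPKM in each aorta on a log axis, with circles for measured ratios and open triangles for upper bounds where Tnfsf11 was at or under 3 counts. The 4 5/6 Nx-HPi-Lp aortas lay between 0.0756 and 0.607, above every bound of the other 12 mice.

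Tnfrsf11a encodes RANK, the receptor of the ligand, and lies at chr1:105780718-105847981. It moved the other way from its ligand. Sham mice held 6.22, 7.07, 6.02 and 6.05 FPKM, a narrow range. The 5/6 Nx-HPi-Lp aortas held 2.31, 2.79, 2.35 and 1.89 FPKM, all below each Sham mouse. The log2 fold change was -1.47 (SE 0.13, adjusted p = 4.57e-05), a 2.76-fold lower level.

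Tnfrsf11a was also below every Sham mouse in the other 5/6 Nx groups. It stood at 2.53, 3.60, 2.54 and 5.53 FPKM in 5/6 Nx-HPi-Hp and at 2.32, 2.80, 2.94 and 4.79 FPKM in 5/6 Nx-LPi-Lp, with replicate 4 the highest of both. The log2 fold changes of -0.84 (adjusted p = 0.0251) and -0.96 (adjusted p = 0.00795) passed the p threshold but not the fold threshold. Without replicate 4 of 5/6 Nx-HPi-Hp the first became -1.15, and without replicate 4 of 5/6 Nx-LPi-Lp the second became -1.23, and both were then called. Between the 5/6 Nx groups the Tnfrsf11a levels overlapped, with log2 differences of -0.61 (adjusted p = 0.160) and -0.46 (adjusted p = 0.20) for 5/6 Nx-HPi-Lp against the others.

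The summed smooth muscle markers moved with Tnfrsf11a. The replicate 4 mice that kept the most Tnfrsf11a, 5.53 and 4.79 FPKM, also had the highest smooth muscle sums of their groups, 8310 and 6112 FPKM. In 5/6 Nx-LPi-Lp both measures had the same order over the 4 mice, and in 5/6 Nx-HPi-Lp they did not, since replicate 2 had the highest Tnfrsf11a and the lowest smooth muscle sum. All 6 smooth muscle markers were called lower in 5/6 Nx-HPi-Lp than in Sham, and 1 of 6 in each of the other comparisons with Sham. The share of counts from mitochondrially encoded genes also differed, at 4.18% to 6.34% in Sham and 9.50% to 29.0% in the 5/6 Nx mice, and it was lowest among the latter in replicate 4 of 5/6 Nx-HPi-Hp, the 5/6 Nx mouse with the most Tnfrsf11a and the least Acp5. With those genes left out of the fit the log2 fold change of Tnfrsf11a against Sham was -1.45 in 5/6 Nx-HPi-Lp, -0.85 in 5/6 Nx-HPi-Hp and -0.95 in 5/6 Nx-LPi-Lp, and that of Acp5 was 2.89, 2.63 and 2.17 in turn. The part of smooth muscle content and of the mitochondrial share in the Tnfrsf11a difference was not tested.

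Nfatc1, on chromosome 18, encodes the master transcription factor of osteoclast formation, which smooth muscle, endothelium and lymphocytes also express. It was measured in all 16 aortas and was called in none of the comparisons. The 5/6 Nx-HPi-Lp aortas had 3.45, 7.81, 5.17 and 5.19 FPKM, against 3.29, 3.85, 3.90 and 3.02 FPKM in Sham mice. Replicate 1 overlapped the Sham mice and the other 3 were above them. The log2 fold change of Nfatc1 was 0.60 (SE 0.21, adjusted p = 0.0456) against Sham, 0.81 (SE 0.22, adjusted p = 0.0412) against 5/6 Nx-HPi-Hp and 0.51 (SE 0.23, adjusted p = 0.153) against 5/6 Nx-LPi-Lp. In 5/6 Nx-HPi-Hp it stood at 2.80 to 3.29 FPKM and in 5/6 Nx-LPi-Lp at 3.46 to 4.73 FPKM, with adjusted p of 0.255 and 0.482 against Sham. These ranges did not overlap, and the adjusted p between them was 0.553.

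The other 3 effector genes tested in each of the 5/6 Nx-HPi-Lp comparisons took different courses. Ctsk and Atp6v0d2 rose in 5/6 Nx-HPi-Lp against each of the other groups, while Acp5 rose against Sham in every 5/6 Nx group. Ctsk encodes cathepsin K, the collagen-degrading protease of osteoclasts that fibroblasts and macrophages can also make, and lies at chr3:95499256-95509362. Acp5 encodes tartrate-resistant acid phosphatase, the histochemical marker of osteoclasts that some macrophages and dendritic cells also express, and lies at chr9:22126727-22135711. Atp6v0d2 encodes a proton pump subunit of osteoclasts and macrophages, needed for precursor fusion, and lies at chr4:19876841-19922605.

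Ctsk stood at 13.2, 10.4, 9.34 and 8.38 FPKM in Sham mice and at 36.4, 139, 49.7 and 63.4 FPKM in 5/6 Nx-HPi-Lp aortas. The groups did not overlap, and replicate 2 was the highest by a wide margin. The 5/6 Nx-HPi-Hp aortas had 13.7, 12.5, 8.05 and 10.6 FPKM and the 5/6 Nx-LPi-Lp aortas 6.44, 9.65, 7.40 and 6.16 FPKM, both overlapping Sham. The log2 fold change of 5/6 Nx-HPi-Lp was 2.77 against Sham (SE 0.38, adjusted p = 0.000415), 2.68 against 5/6 Nx-HPi-Hp (SE 0.39, adjusted p = 0.00497) and 3.29 against 5/6 Nx-LPi-Lp (SE 0.41, adjusted p = 0.00191). The other 5/6 Nx groups differed from Sham by 0.11 (adjusted p = 0.685) and -0.46 (adjusted p = 0.0896).

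Atp6v0d2 was low outside 5/6 Nx-HPi-Lp, at 0.0282 to 0.162 FPKM in Sham, 0 to 0.144 in 5/6 Nx-HPi-Hp and 0.0235 to 0.298 in 5/6 Nx-LPi-Lp. In 5/6 Nx-HPi-Lp it stood at 1.43, 3.30, 1.51 and 2.58 FPKM, from 60 to 501 counts. The lowest of these was above the highest of the other 12 mice. The log2 fold change of Atp6v0d2 was 4.49 against Sham (SE 0.52, adjusted p = 0.000153), 4.63 against 5/6 Nx-HPi-Hp (SE 0.67, adjusted p = 0.00488) and 3.88 against 5/6 Nx-LPi-Lp (SE 0.61, adjusted p = 0.00416). Too few counts were present to test it between the other groups.

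In the 10 macrophage markers the same mice stood apart. All 10 were called higher in 5/6 Nx-HPi-Lp than in Sham, 9 of 10 against 5/6 Nx-HPi-Hp and 10 of 10 against 5/6 Nx-LPi-Lp, and none was at 0 in a group. Within 5/6 Nx-HPi-Lp the macrophage sum was 532, 1961, 1153 and 1034 FPKM, so that replicate 1 was lowest and replicate 2 highest, as for Ctsk. The sum of fibroblast markers was likewise highest in replicate 2, at 991 FPKM against 372 to 580 in the other mice of its group. Their part in the rise of Ctsk and Atp6v0d2 was not tested.

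Acp5 stood at 4.29, 5.85, 9.62 and 6.30 FPKM in Sham mice. It stood at 32.1, 65.3, 39.5 and 58.3 FPKM in 5/6 Nx-HPi-Lp, at 52.0, 23.2, 76.0 and 11.1 FPKM in 5/6 Nx-HPi-Hp and at 44.8, 20.8, 31.9 and 18.2 FPKM in 5/6 Nx-LPi-Lp. Every 5/6 Nx mouse was above every Sham mouse, and the 5/6 Nx groups overlapped one another. The 5/6 Nx-HPi-Hp aortas spread over a 6.87-fold range.

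The log2 fold change of Acp5 against Sham was 2.88 in 5/6 Nx-HPi-Lp (SE 0.29, adjusted p = 7.71e-05), 2.64 in 5/6 Nx-HPi-Hp (SE 0.53, adjusted p = 0.0102) and 2.16 in 5/6 Nx-LPi-Lp (SE 0.32, adjusted p = 0.00343). These 3 comparisons share the Sham libraries. Acp5 was the only 1 of 5 genes tested that was called in 5/6 Nx-HPi-Hp, where 9.41% of all genes were called higher and 2.75% lower. It was likewise the only 1 of 5 called in 5/6 Nx-LPi-Lp, where 8.79% were called higher and 2.08% lower. Between the 5/6 Nx diets the Acp5 log2 difference was 0.28 for 5/6 Nx-HPi-Lp against 5/6 Nx-HPi-Hp (SE 0.49, adjusted p = 0.737) and 0.76 against 5/6 Nx-LPi-Lp (SE 0.32, adjusted p = 0.119). The antisense gene 6530413G14Rik overlaps Acp5 exons, and since strand handling was not stated their reads cannot be told apart, although 6530413G14Rik was given only 0 to 8 counts per library.

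Adipocyte markers moved with Acp5. Their sum was 1006, 441, 1284 and 165 FPKM in 5/6 Nx-HPi-Hp and 1000, 445, 607 and 345 FPKM in 5/6 Nx-LPi-Lp, the same order over the mice as Acp5 in both groups. In Sham mice it was 50.8, 97.4, 173 and 93.1 FPKM, and replicate 1 was lowest and replicate 3 highest in both measures. The 5/6 Nx-HPi-Lp sum was 740, 552, 513 and 1089 FPKM and the order differed, since replicate 2 had the highest Acp5. All 5 markers were called higher than in Sham in 5/6 Nx-HPi-Hp and in 5/6 Nx-LPi-Lp, and 4 of 5 in 5/6 Nx-HPi-Lp. Their part in the Acp5 difference was not tested.

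**Figure D3:**
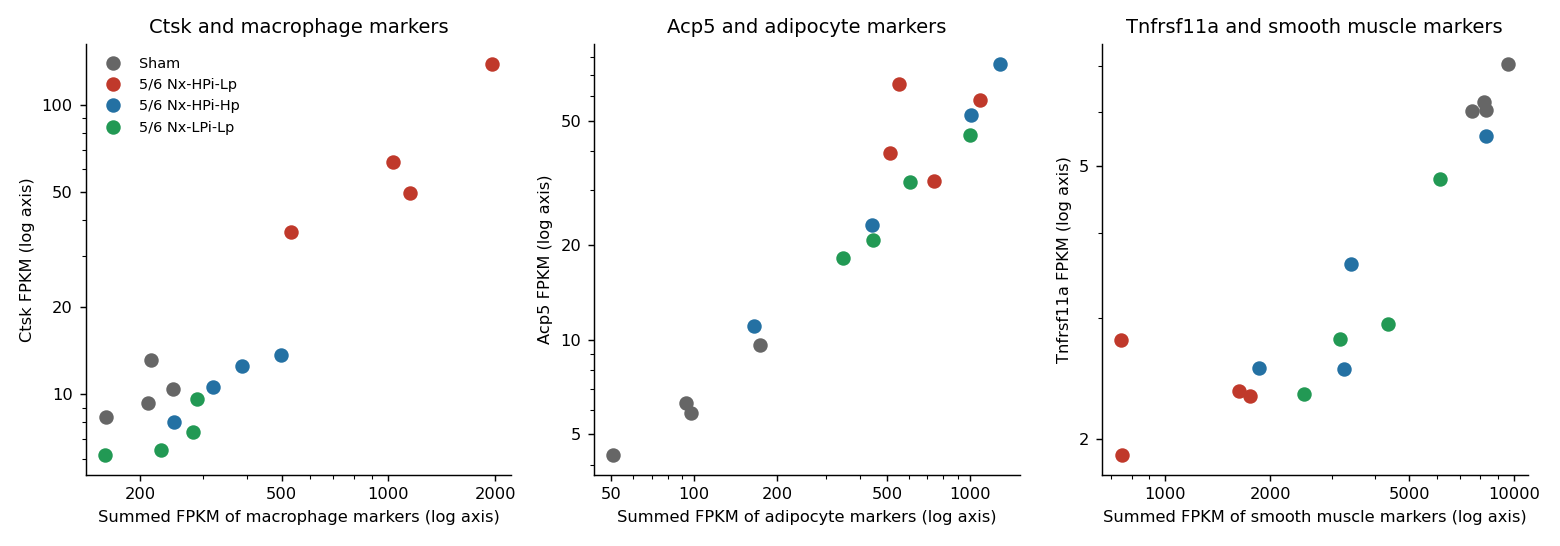
Level of 3 genes against the summed FPKM of a marker list in the 16 aortas, 1 point per mouse, both axes logarithmic: Ctsk with macrophage markers, Acp5 with adipocyte markers and Tnfrsf11a with smooth muscle markers. The 4 5/6 Nx-HPi-Lp aortas stood apart at 36.4 to 139 FPKM of Ctsk, the 5/6 Nx-HPi-Hp mouse with 165 FPKM of adipocyte markers had 11.1 FPKM of Acp5, and the 5/6 Nx-HPi-Hp mouse with 8310 FPKM of smooth muscle markers had 5.53 FPKM of Tnfrsf11a.

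The 3 remaining genes were rare transcripts. Dcstamp and Ocstamp encode membrane proteins required for the fusion of mononuclear precursors into multinucleated osteoclasts, and lie at chr15:39745930-39760938 and chr2:165393760-165400405. Oscar encodes a collagen-binding co-stimulatory receptor of osteoclasts and myeloid cells, at chr7:3609813-3616157. Each of them was uneven within 5/6 Nx-HPi-Lp, and their groups overlapped in all 3 comparisons.

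Dcstamp had 0, 116, 43 and 5 counts in the 5/6 Nx-HPi-Lp aortas, 0 to 3 in Sham, 0 to 7 in 5/6 Nx-HPi-Hp and 0 to 2 in 5/6 Nx-LPi-Lp. Ocstamp had 0, 181, 47 and 45 counts in 5/6 Nx-HPi-Lp and 0 to 17 in the other 12 mice. Replicate 1 thus had no count of either fusion gene. Oscar had 5, 76, 73 and 3 counts in 5/6 Nx-HPi-Lp, which are 0.175, 0.737, 0.874 and 0.105 FPKM against 0.145 to 0.279 in Sham. Replicate 1 thus lay within the Sham range and replicate 4 below it.

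Pooled and scaled, the counts in 5/6 Nx-HPi-Lp were 19.6-fold those of Sham for Dcstamp (95% counting interval 8.84 to 54.3), 10.3-fold for Ocstamp (6.49 to 17.4) and 3.05-fold for Oscar (2.12 to 4.49). Without replicate 2 they were 10.05-fold for Dcstamp (4.29 to 28.7) and 6.08-fold for Ocstamp (3.68 to 10.6). Against 5/6 Nx-HPi-Hp the pooled folds were 6.95 for Dcstamp, 4.90 for Ocstamp and 2.61 for Oscar. Against 5/6 Nx-LPi-Lp they were 21.2, 2.61 and 1.93 in turn. In the main edgeR fit Ocstamp was tested against 5/6 Nx-HPi-Hp (adjusted p = 0.266) and 5/6 Nx-LPi-Lp (adjusted p = 0.410), and not called. Oscar was tested against 5/6 Nx-LPi-Lp (adjusted p = 0.613), and not called. In the edgeR fit that kept genes of any count, the adjusted p against Sham was 0.0509 for Dcstamp, 0.0626 for Ocstamp and 0.270 for Oscar. DESeq2 called Dcstamp and Ocstamp against Sham, with adjusted p of 0.0133 and 0.0167, and gave 0.21 for Oscar. Replicates 1 and 4 of 5/6 Nx-HPi-Lp, its shallower libraries, held the fewest raw counts of each of these genes in their group. In FPKM this did not hold for Ocstamp, at 0.797 in replicate 4 and 0.284 in replicate 3. An edgeR fit without replicates 1 and 4, a choice made after seeing the data, called all 3 against Sham. The libraries kept were those with the higher raw counts, so no conclusion is drawn from these calls. Ocstamp also stood at 6 to 17 counts in 5/6 Nx-LPi-Lp, with FPKM of 0.105 to 0.322 that did not overlap the 0 to 0.0941 of Sham, and edgeR without a count filter gave an adjusted p of 0.0910.

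**Figure D4:**
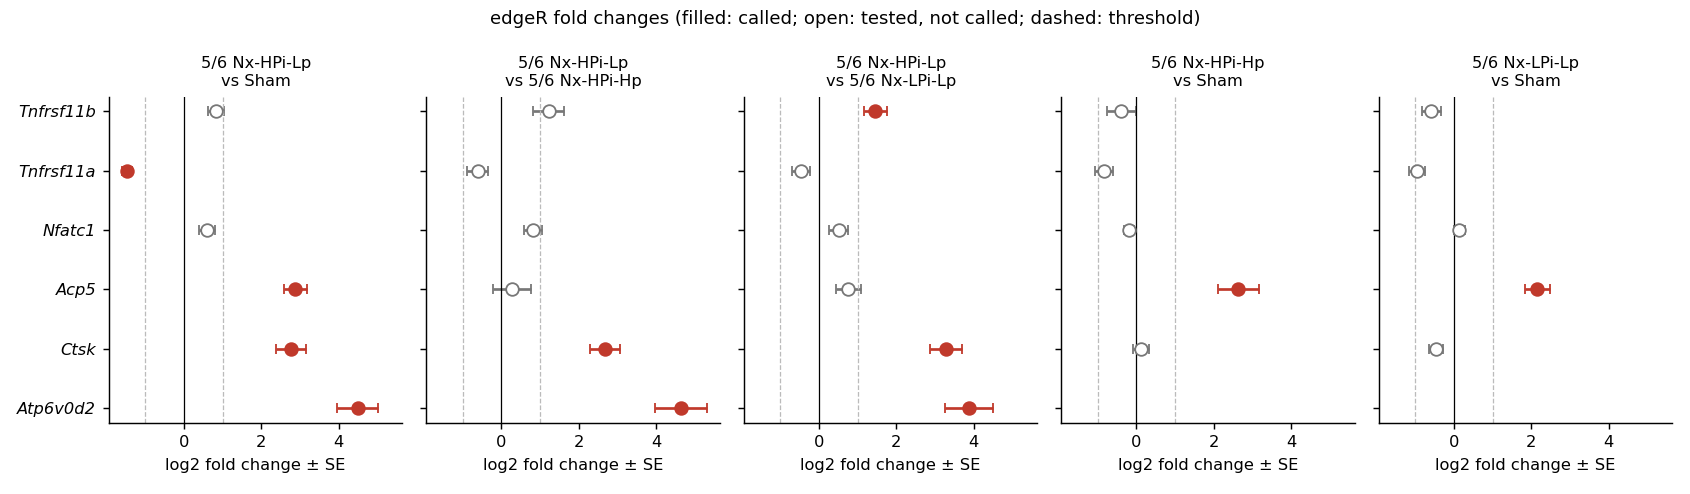
Log2 fold changes with SE from edgeR for the 6 genes with enough counts in 5 comparisons, filled where called, open where tested and not called, with dashed lines at the fold threshold. Tnfsf11 is left out because its reference groups lay at or under 3 counts, and Atp6v0d2 was not tested in the last 2 panels. Ctsk was called at 2.68 to 3.29 in the 5/6 Nx-HPi-Lp comparisons, and Acp5 at 2.16 to 2.88 against Sham in each 5/6 Nx group.

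Within 5/6 Nx-HPi-Lp, Tnfrsf11b and Oscar had their highest FPKM in replicate 3 and the other members in replicate 2. Replicate 2 was the deepest library and had the highest macrophage and fibroblast sums of its group. The share of all genes that were highest in replicate 2 was not computed, so this is not a trait particular to the members. Between 5/6 Nx-LPi-Lp and 5/6 Nx-HPi-Hp 6 of the 10 genes were tested and 0 were called, where 0% of all 15850 genes tested were called higher and 0% lower. At an unadjusted p under 0.05 there were 1420 genes in that comparison, and DESeq2 called 75.

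The osteoclast identity of the aortic signal was checked against 4 further osteoclast markers. Calcr, the calcitonin receptor of mature osteoclasts, had 0 to 10 counts per library in all groups and was at 0 in every 5/6 Nx-HPi-Hp mouse. Siglec15, a fusion-related lectin, had 16, 44, 0 and 0 counts in 5/6 Nx-HPi-Lp and 0 to 6 elsewhere. Mmp9, a gelatinase of osteoclasts and other myeloid cells, was 2.24 higher on the log2 scale in 5/6 Nx-HPi-Lp than in Sham (SE 0.47, adjusted p = 0.00418), at 5.48 ± 4.54 against 1.14 ± 0.141 FPKM (SD, n = 4 each). Itgb3, the vitronectin receptor subunit that osteoclasts share with smooth muscle and platelets, was lower, at 10.7 ± 2.76 against 29.4 ± 5.16 FPKM, with a log2 fold change of -1.49 (SE 0.20, adjusted p = 0.000338). Of the 4, 1 was thus called higher and 1 lower against Sham. Mmp9 stood at 2.05 to 2.90 FPKM in 5/6 Nx-HPi-Hp, above every Sham mouse. In 5/6 Nx-LPi-Lp it was at 0.520 to 1.33 FPKM, overlapping Sham. Itgb3 was 13.7 ± 11.3 FPKM in 5/6 Nx-HPi-Hp, where replicate 4 held 30.4, and 13.2 ± 4.40 in 5/6 Nx-LPi-Lp. Of 2 tested against Sham, 1 was called higher in 5/6 Nx-HPi-Hp, and 1 lower in 5/6 Nx-LPi-Lp. 5/6 Nx-HPi-Lp had 0 called against 5/6 Nx-HPi-Hp, and 1 higher against 5/6 Nx-LPi-Lp. All 4 markers also stand in the list of fusion, adhesion and resorption genes below.

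The wider pathway was followed in 94 other genes in 8 lists. In 5/6 Nx-HPi-Lp against Sham 32 of 88 tested were called higher and 3 lower, or 36.4% and 3.41%. Over all genes these shares were 15.0% and 7.18%. Against 5/6 Nx-HPi-Hp 19 of 90 were higher, or 21.1% beside 5.01% of all genes, and against 5/6 Nx-LPi-Lp 24 of 89 were, or 27.0% beside 7.90%, with 0 lower in both. In 5/6 Nx-HPi-Hp against Sham 11 of 85 were higher, or 12.9% beside 9.41% of all genes, and 2 lower. In 5/6 Nx-LPi-Lp against Sham 3 of 84 were higher, or 3.57% beside 8.79%, and 2 lower. More of the 94 passed the count filter in comparisons with 5/6 Nx-HPi-Lp, 88 to 90, than in those without it, 84 to 86. A gene that passes through that group alone raises the share called, so these shares are not a test against those of all genes. The calls were uneven over the lists.

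The 18 adaptors and kinases that carry the signal from RANK were all tested, and 0 were called higher in any comparison. Against Sham 2 were called lower in 5/6 Nx-HPi-Lp. Map2k6, the kinase upstream of p38, had a log2 fold change of -1.07 (SE 0.28, adjusted p = 0.0127), and Traf5, an adaptor of TNF-family receptors singled out to complete the pair, had one of -1.05 (SE 0.21, adjusted p = 0.00288). The median log2 fold change of this list was 0.07 against Sham, beside -0.003 for all genes tested, and the latter was 0.01 against 5/6 Nx-HPi-Hp and -0.02 against 5/6 Nx-LPi-Lp.

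The co-stimulatory list of ITAM adaptors and their receptors had the highest share of calls against Sham among lists of 5 or more, 8 of 9 tested, with 7 of 10 against 5/6 Nx-HPi-Hp and 6 of 9 against 5/6 Nx-LPi-Lp. Its median log2 fold changes were 2.40, 1.56 and 2.16. Trem2, a lipid-sensing receptor of macrophages and osteoclasts, had the largest, 4.15 against Sham (SE 0.46, adjusted p = 0.000127), at 9.52 ± 5.95 against 0.528 ± 0.0969 FPKM. Of the M-CSF axis, the receptor Csf1r was called in all 3 comparisons, with 29.5 ± 12.3 FPKM in 5/6 Nx-HPi-Lp against 7.42 ± 0.655 in Sham and a log2 fold change of 1.96 (SE 0.25, adjusted p = 0.000248). These receptors are also markers of macrophages, whose list rose in the same mice as given above.

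Of the osteoclast transcription factors and their repressors 5 of 11 tested were called higher against Sham, 4 of 12 against 5/6 Nx-HPi-Hp and 5 of 12 against 5/6 Nx-LPi-Lp. The median log2 fold changes of the list were 0.71, 0.63 and 1.02. Irf8, a repressor of osteoclast formation, was 2.54 higher on the log2 scale against Sham (SE 0.24, adjusted p = 6.06e-05), and so was the myeloid activator Spi1, by 2.48 (SE 0.38, adjusted p = 0.000701), both chosen after their values were seen. The members called higher in this list thus included a gene that restrains osteoclast formation as well as one that promotes it.

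Of the fusion, adhesion and resorption genes 8 of 18 tested were called higher against Sham and 1, Itgb3, lower, with 3 higher against 5/6 Nx-HPi-Hp and 5 against 5/6 Nx-LPi-Lp. Their medians were 0.62, 0.55 and 0.37. Adam8, a membrane metalloprotease of myeloid cells, was the highest, 3.66 against Sham (SE 0.43, adjusted p = 0.000162), at 6.07 ± 3.53 against 0.471 ± 0.0727 FPKM. The osteoclast pump subunit Tcirg1, which stands in this resorption list, was also called higher against Sham and its values are given among the other observations. Of the 15 subunits in the separate proton pump list, which leaves out Atp6v0d2 and Tcirg1, Atp6v1b2 was called in each comparison of 5/6 Nx-HPi-Lp and no other was, with 1.61 against Sham (SE 0.14, adjusted p = 4.82e-05). The level of Atp6v1b2 was 27.2 ± 5.32 FPKM against 8.74 ± 0.355 in Sham, and the median log2 fold change of the 15 subunits was 0.14.

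Known inducers of RANK ligand and their receptors were called higher in 8 of 12 tested against Sham, 3 of 12 against 5/6 Nx-HPi-Hp and 6 of 12 against 5/6 Nx-LPi-Lp, with medians of 2.00, 1.07 and 1.48. Of the 14 in the list, only 8 or 9 had enough counts to be tested in comparisons without 5/6 Nx-HPi-Lp. Genes that pass the count filter through that group alone raise these counts and medians, which are thus not a test. Il1b, an inflammatory cytokine, changed most, with 7.38 ± 6.38 FPKM in 5/6 Nx-HPi-Lp against 0.158 ± 0.0654 in Sham and a log2 fold change of 5.51 (SE 0.82, adjusted p = 0.000598). Il11 and Vdr, a gp130-family cytokine and the vitamin D receptor, both chosen after their values were seen, rose by 3.52 (SE 0.54, adjusted p = 0.000747) and 3.02 (SE 0.43, adjusted p = 0.000451). The other ligand that osteoprotegerin binds, TRAIL (Tnfsf10), and its receptor were tested and neither was called in any comparison, with Tnfsf10 at 2.44 ± 0.624 FPKM in 5/6 Nx-HPi-Lp against 1.84 ± 0.436 in Sham.

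**Figure D5:**
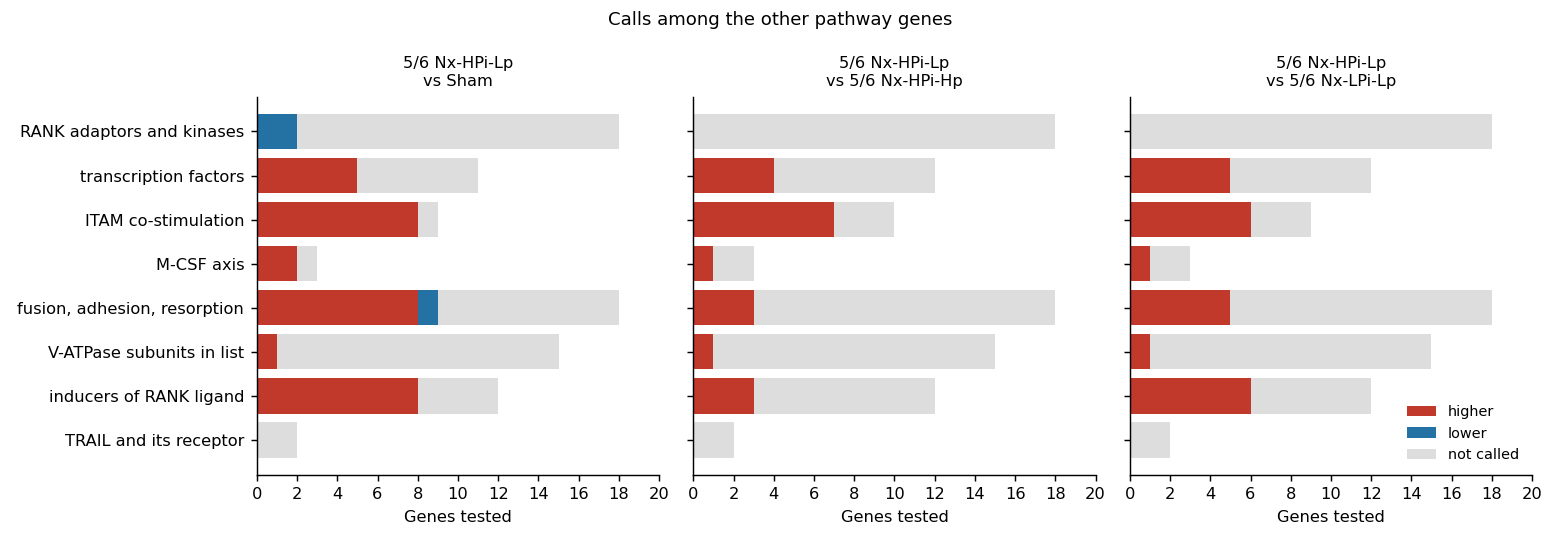
Number of genes tested in each of 8 pathway lists, split into called higher, called lower and not called, for 5/6 Nx-HPi-Lp against each other group. Against Sham 8 of 9 tested genes of ITAM co-stimulation were called higher, 0 of 18 RANK adaptors and kinases were called higher and 2 lower, and 1 of 15 subunits in the proton pump list was called.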

How the data were processed

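Aortic RNA of 16 mice was sequenced, 4 per group, and groups were taken from the deposited labels. The authors counted reads per gene on mm10 with featureCounts 1.5.0-p3, as the submitters' processing notes give it, and deposited raw counts for 54532 genes. They also deposited FPKM already scaled between libraries; the strand option is not given in the sources used here. Library totals were 13659525 to 57276915 counts, so genes near the floor of 3 counts carry a large counting error, and intervals on pooled counts are exact and cover that error only. No 2 libraries of a group were copies: their counts differed by a chi-square per gene of at least 20.0.

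Counts of the 8 libraries compared were fitted in R 4.3.3 with edgeR 4.0.16 (filterByExpr, TMM, quasi-likelihood test, Benjamini-Hochberg over all genes), after tests on simulated data, in 6 comparisons. Calls needed an adjusted p of at most 0.05 and a log2 fold change of at least 1 in size. Where the study's methods use DESeq2, it was run here as an alternative (1.42.0), beside limma 3.58.1 on log2(FPKM + 1) and log2(FPKM + 0.1) for a mean FPKM over 0.1, RLE scaling, no count filter, a replicate block, a single fit of all 16 libraries, no mitochondrially encoded genes, no fold threshold and each library left out. Motifs and coordinates used Python 3.11.15, RefSeq promoters of GRCm38.p6 and GENCODE vM21, in which all 10 genes had the deposited coordinates. The genes named were the 10 members, the called gene with the highest and the lowest fold change of each pathway list in each 5/6 Nx-HPi-Lp comparison, and the 5 genes most like Tnfsf11, Tnfrsf11b and Ctsk; others are said to be chosen after their values were seen. The members, the lists and the alternatives were chosen with earlier results of these data known. A result that the rule for named genes calls for is not reported here.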

Additional observations from a re-analysis of the deposited data

Results flagged for a closer look

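Of 40 groups of 4 mice, 10 genes in 4 groups, 3 held a mouse whose distance from the rest took up most of the range of its group, and chance alone sets apart about 1 group in 20. Tnfsf11 stood at 0.0239 FPKM in replicate 1 of 5/6 Nx-HPi-Hp and at 0.0570 FPKM in replicate 2 of 5/6 Nx-LPi-Lp, while the other 3 mice of each group were at 0. These values rest on 1 and 2 counts, under the floor of 3 counts. Nfatc1 stood at 4.73 FPKM in replicate 2 of 5/6 Nx-LPi-Lp, where the next mouse had 3.58 FPKM, and this value rests on 551 counts.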

How the results depend on the processing

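Of the values that were called, 269 alternatives kept the direction and the call, 7 kept the direction without the call and 0 reversed. Those lost were Tnfsf11 with limma on log2(FPKM + 1), Tnfrsf11b against 5/6 Nx-LPi-Lp without replicates 2 and 3 of 5/6 Nx-HPi-Lp, and Acp5 in 5/6 Nx-HPi-Hp against Sham with limma and no FPKM filter (adjusted p = 0.0559). The number of genes called in 5/6 Nx-HPi-Lp against Sham was 5 and became 9 without replicates 1 and 4 of that group, the pair richest in sympathetic neuron genes. That pair, the shallower libraries of its group, also held its fewest raw counts of Dcstamp, Ocstamp and Oscar. In FPKM, Ocstamp was higher in replicate 4 than in replicate 3. The pair was chosen after the data were seen, so no conclusion is drawn from the 9. The number called was 4 to 7 under the other alternatives.

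In 5/6 Nx-HPi-Hp against Sham the count was 1, 0 with limma and no FPKM filter, 2 with no fold threshold and 1 to 2 with a replicate left out, the second being Tnfrsf11a. In 5/6 Nx-LPi-Lp against Sham it was 1 and became 2 with DESeq2 (Ocstamp), and 2 with no count filter, limma on log2(FPKM + 0.1) and no fold threshold (Tnfrsf11a), and 1 to 2 with a replicate left out. A replicate block also gave 2 there, Tnfrsf11a being called at -1.01 (adjusted p = 0.0182). Deviations of same-numbered mice correlated at -0.28 to 0.54 over the 6 comparisons, and in none were all 4 pairs over 0.1, so the numbers were not taken as pairs. In 5/6 Nx-HPi-Hp against 5/6 Nx-LPi-Lp 3 of the 4 were over 0.1, at 0.16 to 0.54, and replicate 3 was at -0.071. The block changed no other count.

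The 5 values that reversed, none of them called, did so when a replicate was left out. Over these repeats the log2 fold change of Acp5 in 5/6 Nx-HPi-Lp against 5/6 Nx-HPi-Hp ran from -0.038 (without replicate 4 of 5/6 Nx-HPi-Hp) to 0.74, and Ctsk in 5/6 Nx-HPi-Hp against Sham ran from -0.017 (without replicate 1) to 0.24. For 5/6 Nx-HPi-Hp against 5/6 Nx-LPi-Lp, Tnfrsf11b ran from -0.023 to 0.51 and Tnfrsf11a from -0.18 to 0.40, both lowest without replicate 4 of 5/6 Nx-HPi-Hp, and Acp5 ran from -0.0030 (without replicate 3) to 0.79. The cause was not tested.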

Other observations

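The genes whose pattern over the 16 aortas was most like that of 3 members are given as a description, from Pearson's r of log2(CPM + 1) over 17443 genes, with no test. The 4 libraries of 5/6 Nx-HPi-Lp hold most of the spread, and all points share their library's scaling. For Tnfsf11 they were Slc7a11, a cystine transporter (0.981), Clca3a2 (0.962), Cd300lf (0.961), Gm36107 (0.959) and Snai1, a transcription factor of mesenchymal cells (0.955). Slc7a11 itself was low, at 0.240 ± 0.208 FPKM in 5/6 Nx-HPi-Lp and 0.0214 ± 0.0100 in Sham (SD, n = 4 each). For Ctsk they were Mmp2, a gelatinase of fibroblasts (0.988), Plek (0.984), 1700025G04Rik (0.981), Nid1, a basement membrane protein (0.977) and Tnfsf13b, the B cell cytokine BAFF (0.973). Mmp2 stood at 137 ± 78.9 FPKM in 5/6 Nx-HPi-Lp, 23.3 ± 5.63 in Sham, 27.5 ± 8.15 in 5/6 Nx-HPi-Hp and 18.3 ± 1.24 in 5/6 Nx-LPi-Lp. For Tnfrsf11b the values were lower, with Itgb8 (0.930), Soat1 (0.909), Kctd5 (0.908), Adam19 (0.900) and Ndnf (0.899).

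Tcirg1, the pump subunit that osteoclasts use at the plasma membrane and chosen here after its values were seen, stood at 74.3 ± 10.3 FPKM in 5/6 Nx-HPi-Lp, 61.6 ± 24.0 in 5/6 Nx-HPi-Hp, 37.0 ± 5.00 in 5/6 Nx-LPi-Lp and 21.7 ± 3.77 in Sham (SD, n = 4 each). It was called higher than Sham in 5/6 Nx-HPi-Lp (log2 fold change 1.74, SE 0.15, adjusted p = 4.57e-05) and in 5/6 Nx-HPi-Hp (1.49, SE 0.26, adjusted p = 0.00941), and 5/6 Nx-LPi-Lp was 0.79 higher (SE 0.15, adjusted p = 0.00518), under the fold threshold. Csf1, the macrophage growth factor, was lower than Sham in each 5/6 Nx group without being called, at 13.3 ± 2.96, 12.4 ± 2.90 and 13.7 ± 1.70 FPKM against 18.5 ± 0.902.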
